A study of Homo sapiens with 12 samples.

Results

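FOXA1 occupancy in LNCaP cells given EPZ-6438 and P5091 together was compared with that in LNCaP cells given P5091 alone, using the peak lists of 4 of the 12 ChIP-seq libraries of the series. The compared groups were the combination (1 µM EPZ-6438 and 3 µM P5091, replicates 1 and 2) and P5091 (3 µM, replicates 1 and 2), so that P5091 was common to both and EPZ-6438 was the difference between them. Treatment lasted 7 days. EPZ-6438 alone (1 µM) and DMSO, also 7 days and 2 libraries each, served as a second setting in which EPZ-6438 is added, without P5091. All 8 of these libraries were made with an antibody against FOXA1. The other 4 libraries, made with an HA antibody, come from cells 5 days after infection, with 1 library per condition. Of these, the libraries of cells with FOXA1 knockdown (shFoxA1) that also expressed HA-tagged WT FOXA1 or its K295A variant were used to ask whether a region had a peak of the tagged protein. The labels name no separate cultures behind the replicate numbers, so p-values measure the spread between these libraries, which may be technical. The identity of the cell line, FOXA1 protein and the action of either compound on its target were not checked here.

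FOXA1 is a forkhead pioneer factor, which binds its sites on nucleosomal DNA and opens them for other factors, including the androgen receptor in luminal prostate cells. EPZ-6438 (tazemetostat) inhibits EZH2, the Polycomb methyltransferase that places H3K27me3, and P5091 inhibits USP7, a deubiquitinase that protects its substrates from degradation by the proteasome. LNCaP is a human prostate cancer line that responds to androgen. By its title, the series concerns the stability of FOXA1 protein and its control by Polycomb and by a complex of BUB3 and USP7. The comparison therefore asks what inhibiting EZH2 adds to inhibiting USP7, read as FOXA1 on chromatin.

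Merging the peaks of the 4 lists at any overlap of 1 base or more gave 113493 regions. A peak was called in all 4 libraries at 26306 of them (23.2%, median width 368 bases), and these are the tested regions. A further 21817 regions (19.2%) lacked a peak in combination replicate 1 alone. The corresponding numbers were 514 for combination replicate 2, 1726 for P5091 replicate 1 and 549 for P5091 replicate 2. A single library supplied 38871 regions (34.2%).

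Combination replicate 1 stood apart from the other libraries. It held 30811 peaks and combination replicate 2 held 83194, against 68504 and 82825 with P5091 (57002 ± 37040 and 75664 ± 10126, SD, n = 2 each). In combination replicate 1, 5.26% of tags lay in peaks, against 18.86% to 21.2% in the other FOXA1 libraries, although its total of 15999804 tags lies within their range of 12299238 to 22589685. The normalized tag count, the tags of a peak scaled to a library of 1e7 tags, had a median over the tested regions of 14.4 and 34.7 in the combination libraries and of 36.5 and 35.7 with P5091. On the log2 scale the median differed by -1.28 in replicate 1 and by -0.0399 in replicate 2, a mean of -0.662 with an SD of 0.88 between the 2 differences (exact permutation p = 0.333, two-sided, the smallest that 2 libraries against 2 allow). The log2 peak number differed by -1.15 and 0.0064 (exact permutation p = 1, two-sided). The direction thus rests on replicate 1, and without combination replicate 1 the mean differences were -0.0459 for the tag count and 0.143 for the peak number. Combination replicate 1 also had narrower peaks, 279 bases against 356 for P5091 replicate 1, whereas the peaks of replicate 2 measured 274 and 296 bases. Per 300 bases of peak the differences in median were -0.946 and 0.0686. What part peak width or the lower share of tags in peaks has in the differences given next was not tested.

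**Figure D1:**
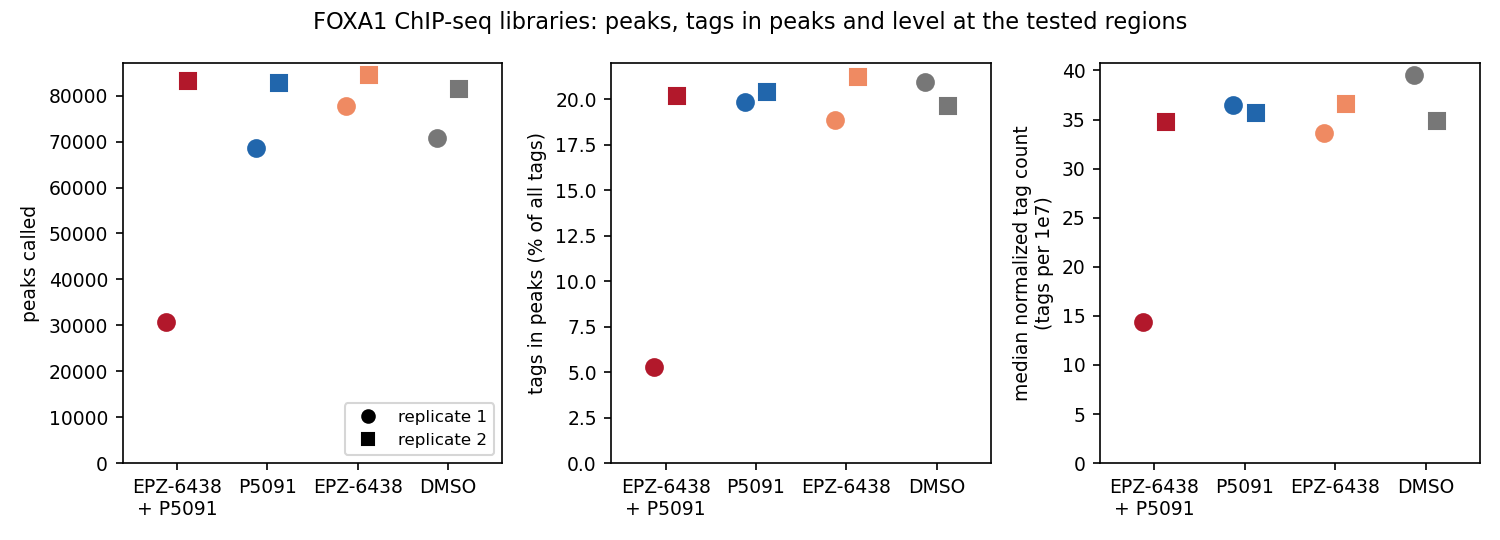
Number of peaks (left), percent of tags in peaks (middle) and median normalized tag count at the tested regions (right) of each FOXA1 library, with circles for replicate 1 and squares for replicate 2. Combination replicate 1 lies below the other 7 libraries in all 3 panels, with 30811 peaks, 5.26% of tags in peaks and a median of 14.4, and combination replicate 2 lies among them.

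The lists of replicate 1 and replicate 2 overlapped to different degrees. In replicate 1, 89.4% of combination regions were also called with P5091, and 40.2% of P5091 regions were also called with the combination. In replicate 2 the shares were 74.3% and 74.7%. The regions that lacked a peak in combination replicate 1 alone were weak in the other libraries, with a median tag count of 16.6 in combination replicate 2 and of 17.6 and 16.9 with P5091, below the lower quartile of the tested regions (23.7 in combination replicate 2, 23.5 and 23 with P5091).

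To set this shift aside, each library was centred on its own median over the tested regions, and differences were taken within a replicate number. The differences that follow are therefore relative to the typical region of a library. A region reported as higher held more FOXA1 tags relative to the rest of its library, and this need not mean more in absolute terms. The centred differences were small at most regions, with an SD of 0.606 on the log2 scale in replicate 1 and 0.454 in replicate 2, and 89.7% and 96.7% of regions lay within 2-fold. Both replicate numbers gave the same direction at 14872 regions (56.5%). Across the 26306 regions the differences of replicate 1 and of replicate 2 had a Pearson r of 0.223, a description over regions that share their libraries.

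A small set of regions gained or lost FOXA1 signal relative to the rest when EPZ-6438 was added to P5091. With the replicate number as a block, limma called 35 regions higher (0.133% of those tested) and 21 lower (0.0798%) at a Benjamini-Hochberg adjusted p under 0.05. At an unadjusted p under 0.05 there were 1552 higher (5.9%) and 1370 lower (5.21%) regions. All 35 and all 21 had the same direction in both replicate numbers, as did 56.5% of all tested regions, and their centred values did not overlap between the groups. The regions were chosen by these same values, so neither is separate support for the calls. The log2 differences were 0.887 to 1.74 at the higher regions, with a median of 1.45, and -1.63 to -1.09 at the lower regions, with a median of -1.26, against 0.0145 over all tested regions. Before centring, both combination libraries lay below both P5091 libraries at all 21 lower regions, and both lay above at 12 of the 35 higher regions. At 7 of the 35, combination replicate 1 was below P5091 replicate 1. Over all tested regions the combination medians were 14.4 and 34.7, against 36.5 and 35.7 with P5091. Before centring, combination replicate 1 is thus low in general, and combination replicate 2 is close to P5091. The shares of all tested regions without overlap, before or after centring, were not counted.

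These counts depend on the block, the centring and single libraries. Without the replicate block limma called 2 higher and 0 lower regions (1903 at an unadjusted p under 0.05). Without it edgeR called 0, with 1883 unadjusted. Without centring limma called 0, with 143 unadjusted, all 143 lower. With the block, edgeR and its TMM factors gave 26 higher and 13 lower. In fits over the remaining FOXA1 libraries of all 4 groups, where a lone library is assumed to vary like the others, limma called 7 higher and 31 lower without combination replicate 1. It called 391 and 542 without combination replicate 2, and 36 and 24 without P5091 replicate 2. Without P5091 replicate 1 it called 0, with 1423 unadjusted. With all 8 libraries in the fit it called 80 and 131, which included each of the 27 higher and 21 lower regions of the main set that could be tested there. The limma fits of the 4 libraries with the block had 1 residual degree of freedom per region, and there the spread behind each p was taken from all regions together. The limma fits without the block or with a library left out had 2, and the fit of all 8 libraries had 3. In these, limma took the spread partly from all regions together.

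**Figure D2:**
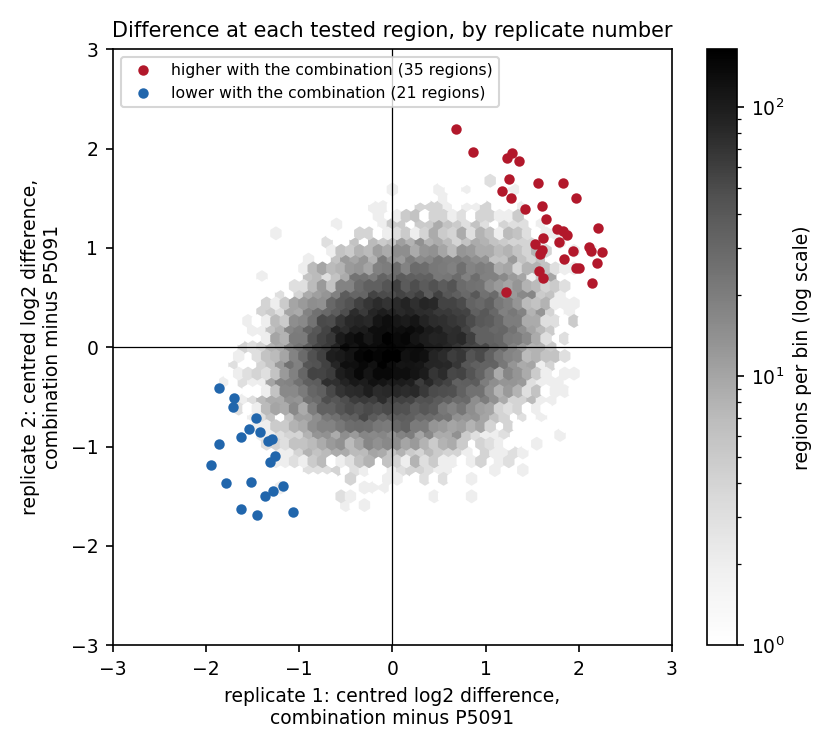
Centred log2 difference, combination minus P5091, of each tested region in replicate 1 (x) and replicate 2 (y). Grey shading gives the number of regions per bin on a log scale, red points the 35 regions called higher and blue points the 21 called lower, which lie at the upper right and lower left of the main cloud.

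The regions that fell were mostly strong FOXA1 sites without EPZ-6438. At the 21 lower regions the median tag count was 14.4 and 34.7 with the combination, against 110.9 and 70.8 with P5091. It was 60.2 and 45.5 with EPZ-6438 alone, against 112.6 and 84.2 with DMSO. In these medians both groups without EPZ-6438 lay above both groups with it. Over all tested regions the DMSO medians were 39.5 and 34.8. Testing required a peak in both combination libraries, so a region could fall far only from a high level with P5091. The P5091 values also helped to choose the regions. What part of the high level this selection sets was not tested. All 21 also had a peak of HA-tagged WT FOXA1 and of K295A FOXA1, against 89.3% and 88.4% of all tested regions. The share among regions of like tag count was not counted.

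The smallest p was at chr9:110146911-110147267 (hg19), with tag counts of 18.1 and 18.9 with the combination, against 142.9 and 62.3 with P5091. The combination libraries were far below the P5091 libraries in both replicate numbers (log2 difference -1.63 ± 0.29 SE, limma adjusted p = 0.000565). These values come from 29 and 24 tags with the combination and 219 and 103 tags with P5091. With EPZ-6438 alone the region had 55.3 and 26.0, against 147.7 and 80.1 with DMSO, and it was lower there too (-1.44, adjusted p = 1.59e-05).

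At chr7:91225743-91226137 the tag counts were 14.4 and 26.0 with the combination, against 128.5 and 70.8 with P5091 (-1.58 ± 0.29, adjusted p = 0.000565). The EPZ-6438 libraries had 54.4 and 35.8, against 132.4 and 58.1 with DMSO, so that the libraries with EPZ-6438 lay below those without it. At chr3:176477688-176478044, the strongest of the 10 lower regions of smallest p, the tag counts were 37.5 and 52.9 with the combination, against 232.2 and 122.3 with P5091 (-1.23 ± 0.25, adjusted p = 0.00657). EPZ-6438 alone gave 97.8 and 63.4, against 255.2 and 202.6 with DMSO. At this region too, every library with EPZ-6438 lay below every library without it.

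At chr17:40957141-40957524 the tag counts were 10.6 and 37.9 with the combination, against 108.3 and 90.2 with P5091 (-1.57 ± 0.29, adjusted p = 0.000565). With EPZ-6438 alone it had 61.5 and 53.7, against 86.3 and 84.2 with DMSO, a log2 difference of -0.505 that did not pass (adjusted p = 0.292). The difference between the 2 effects was -1.05 (unadjusted p = 0.00381, adjusted p = 0.999) and did not pass. The other 6 of the 10 lower regions of smallest p had 8.13 to 29.2 with the combination, against 38.7 to 127.2 with P5091.

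The regions that rose were mostly weak FOXA1 sites without EPZ-6438. At the 35 higher regions the median tag count was 18.8 and 45.8 with the combination, against 13.7 and 20 with P5091. It was 30.5 and 38.2 with EPZ-6438 alone, against 19 and 17.1 with DMSO. The P5091 values helped to choose these regions too, and what part of the low level this sets was not tested. At 8 of the 35 (22.9%) at least 1 DMSO library had no peak, against 5.12% of all tested regions, and at 0 of the 35 did an EPZ-6438 library lack one (4.03% of all tested). HA-tagged WT FOXA1 had a peak at 22 of the 35 (62.9%) and K295A FOXA1 at 21 (60%), below the 89.3% and 88.4% of all tested regions. None of these shares was set against regions of like tag count, and the 35 are weaker than the tested regions in general. The authors' focus ratio, the share of a peak's tags on the expected strands around its centre, was alike in the 3 sets, with medians of 0.906 at higher, 0.893 at lower and 0.891 at all tested regions.

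The smallest p among them was at chr18:28030858-28031214, with tag counts of 23.1 and 67.9 with the combination, against 12.4 and 35.1 with P5091. The combination was higher within each replicate number (1.55 ± 0.32 SE, limma adjusted p = 0.00713), while replicate 1 of the combination lay below replicate 2 of P5091. With EPZ-6438 alone the tag counts were 42.9 and 57.7, against 15.4 and 15.7 with DMSO (1.67, adjusted p = 5e-04).

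At chr4:81630615-81631028 the tag counts were 20.6 and 45.8 with the combination, against 10.4 and 20 with P5091 (1.70 ± 0.36, adjusted p = 0.00811). EPZ-6438 alone gave 28.8 and 29.3, against 14.6 and 6.97 with DMSO, also higher (1.49, adjusted p = 0.0106). Every library with EPZ-6438 lay above every library without it. The P5091 and DMSO values of 10.4 and 6.97 stand close to the calling thresholds of those libraries, 7.83 and 6.39.

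At chr12:39285810-39286259 the tag counts were 18.1 and 53.7 with the combination, against 9.13 and 30.3 with P5091 (1.52 ± 0.35, adjusted p = 0.0225). EPZ-6438 alone gave 42.9 and 43.9, against 10.2 and 14.5 with DMSO. The region had peaks of both HA-tagged proteins, whereas the region on chromosome 4 had neither.

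The 10 higher regions of smallest p were not uniform. At chr8:48881102-48881458 the combination had 18.1 and 78.9, against 28.0 and 16.9 with P5091, so that replicate 1 of the combination was higher than replicate 1 of P5091 only after centring. At chr8:143799586-143799942 the combination had 21.3 and 50.5, against 16.3 and 20.6 with P5091 (1.47 ± 0.34, adjusted p = 0.0228). EPZ-6438 alone gave 32.8 and 27.6 there, against 32.9 and 25.5 with DMSO, so that without P5091 the groups overlapped. One region lay on the unplaced contig Un_gl000220, at 134053 to 134409, a contig that carries ribosomal RNA genes. It had 2166.3 and 4489.4 with the combination, against 2267.5 and 3137.5 with P5091, far more tags than any other called region.

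**Figure D3:**
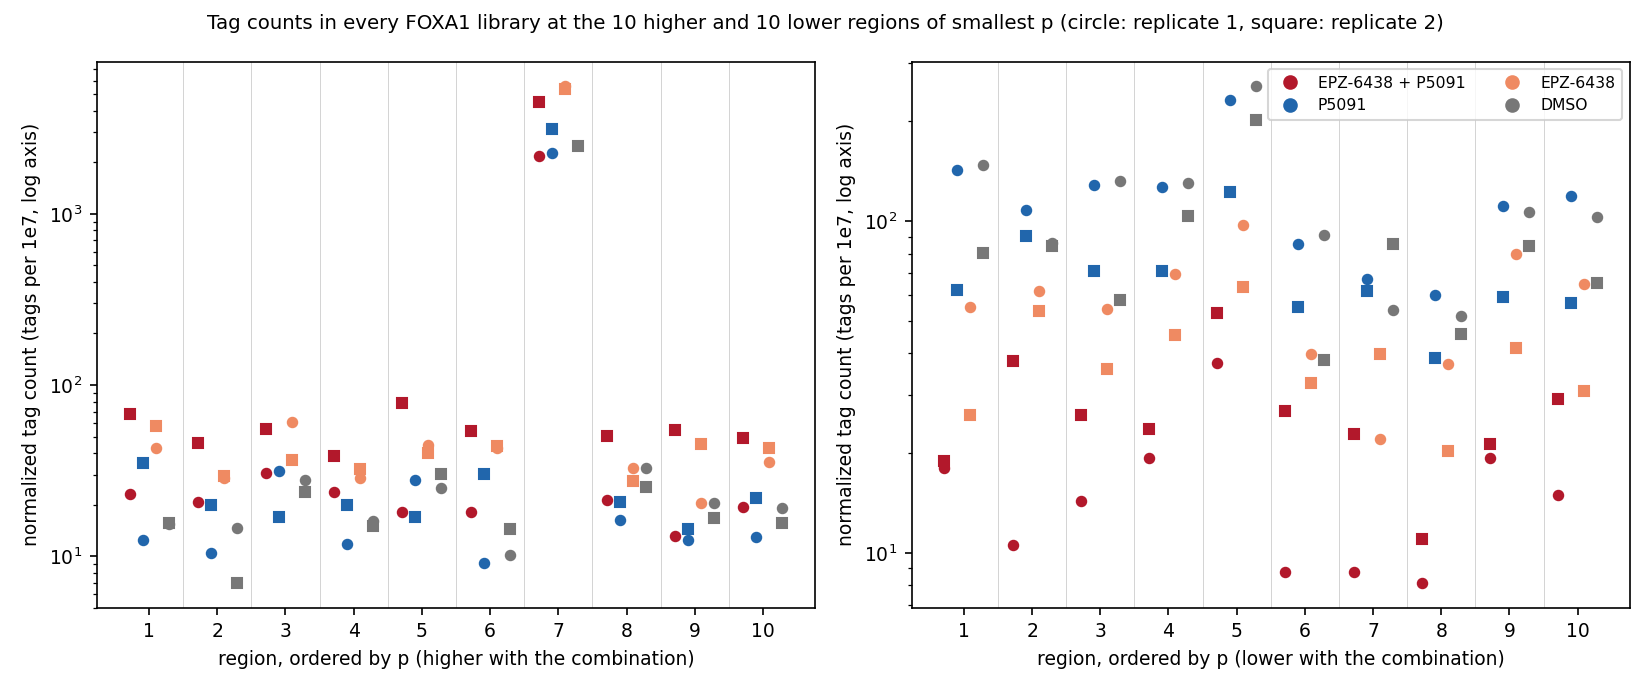
Normalized tag counts (log axis) in all 8 FOXA1 libraries at the 10 regions of smallest p that were higher with the combination (left) and the 10 that were lower (right), in order of p. Colours give the treatment, circles replicate 1 and squares replicate 2. At the lower regions the combination and EPZ-6438 values mostly lie below those of P5091 and DMSO, and region 7 on the left is the one on the unplaced contig.

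Most of these regions differed in the same direction when EPZ-6438 was added without P5091, and fewer passed the test there. The EPZ-6438 and DMSO libraries took no part in choosing the regions, and 48 of the 56 had a peak in all of them. At 26 of 27 higher and 21 of 21 lower regions EPZ-6438 minus DMSO had the sign of combination minus P5091, together 47 of 48 (97.9%, 95% exact Clopper-Pearson interval 88.9 to 99.9, covering counting error only, since regions share libraries). Both replicate pairs of EPZ-6438 and DMSO had that sign at 25 and 19 regions. Of the tested regions on the higher side of the main comparison 64.7% kept their sign without P5091, and of those on the lower side 69.9%. Both replicate pairs did so at 43.9% and 42.3%. At an unadjusted p under 0.05 in the main comparison, which takes in the called regions, the shares were nearer to theirs. There 86.4% of 1297 higher and 90.5% of 1352 lower regions kept their sign, and 70.0% and 67.5% in both pairs. The median log2 difference without P5091 was 0.91 at the higher regions, where it was 1.44 with P5091, and -0.749 at the lower regions, where it was -1.26 with P5091. The values with P5091 are those by which the regions were chosen, and the sizes are therefore not compared. EPZ-6438 against DMSO called 154 regions higher (0.637% of 24171) and 184 lower (0.761%), and these included 10 of the 27 and 9 of the 21. Without the replicate block limma called 1 higher and 2 lower between EPZ-6438 and DMSO. It called 0 without EPZ-6438 replicate 2 or without DMSO replicate 2, with 2078 and 1900 at an unadjusted p under 0.05. Without EPZ-6438 replicate 1 it called 0 higher and 4 lower, and without DMSO replicate 1 it called 24 and 27.

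The reverse reading starts from the regions called between EPZ-6438 and DMSO with the block, and so from calls with the same dependence on single libraries. Of the 154 regions higher with EPZ-6438, 149 (96.8%) were also higher with the combination than with P5091, at a median of 0.672, and 119 were so in both replicate numbers. Of the 184 lower regions, 182 (98.9%) were also lower, at a median of -0.657, and 159 in both replicate numbers. At an unadjusted p under 0.05, 76 and 106 of them passed in the combination against P5091. Of all 26306 tested regions, 51.4% were higher with the combination and 48.6% lower. Both replicate numbers gave the same direction, either one, at 56.5%. At an unadjusted limma p under 0.05, 5.9% were higher and 5.21% lower. Over the 24171 regions with a peak in all 8 libraries the 2 sets of log2 differences had a Pearson r of 0.519, and 0.481 with the trend on tag count removed from both. The correlation also held across replicate numbers: replicate 1 of the combination contrast had r = 0.363 with replicate 1 and r = 0.369 with replicate 2 of the EPZ-6438 contrast, and replicate 2 had r = 0.322 with replicate 2 and r = 0.226 with replicate 1.

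Whether EPZ-6438 acted differently with and without P5091 was tested as an interaction at these 24171 regions. limma called 0 (0.0%), with 813 at an unadjusted p under 0.05 (3.36%). Among the 48 called regions with all 8 values, 9 had an unadjusted interaction p under 0.05, a count raised by the choice of these regions for their difference with P5091, which is part of the interaction. A difference that misses the threshold does not show that the effects are equal. Data were simulated for the 4 compared libraries with the spread of the main comparison. Of 100 regions changed 2-fold 17 were found, and of 100 changed 4-fold 79, with 2 false calls. The noise was normal, with the spread that the test itself takes from all regions together. Recovery and false calls may therefore look better than in the real data. No interaction was simulated.

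**Figure D4:**
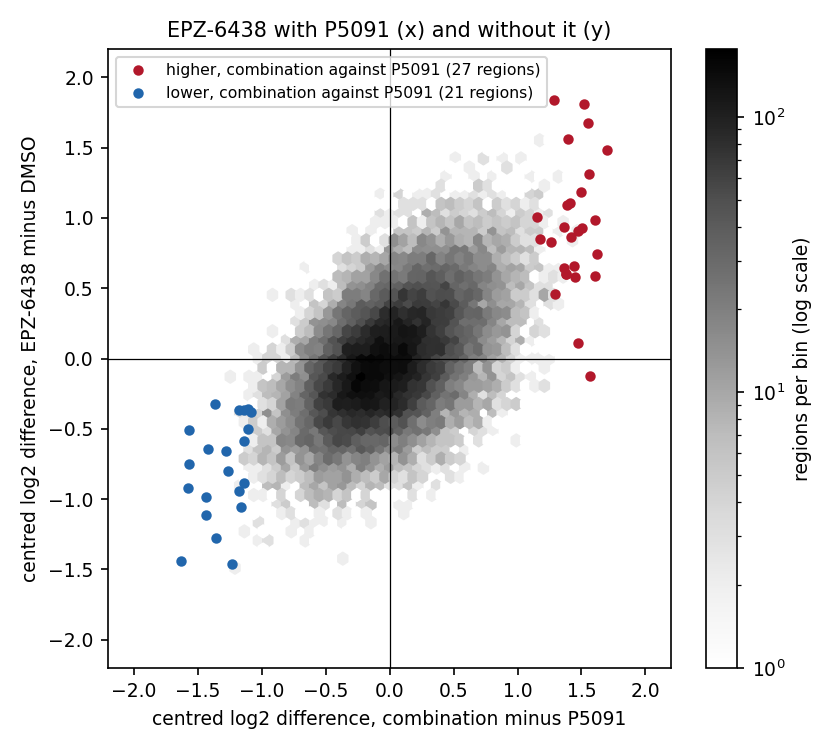
Centred log2 difference of combination minus P5091 (x) and of EPZ-6438 minus DMSO (y) at the 24171 regions with a peak in all 8 FOXA1 libraries, with grey shading for the number of regions per bin on a log scale. The regions called in the combination against P5091 are coloured, 27 higher in red and 21 lower in blue, and 47 of the 48 lie on the same side of 0 on both axes.

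Among the tested regions, the direction of the difference went with the strength of the site. Being tested required a peak in combination replicate 1, where the calling threshold was a tag count of 6.88, so that weak sites entered where that library was relatively high. The 21817 regions that lacked a peak there alone are not among them, and what part of the trend this filter sets was not tested. In 4 groups of nearly equal size, by the mean tag count of a region in the DMSO libraries, which are not in the comparison, the median centred difference in replicate 1 was 0.51, 0.10, -0.14 and -0.31 from the weakest to the strongest group. In replicate 2 it was 0.13, 0.011, -0.061 and -0.12, the same order with a smaller range. The called regions followed it, with 20, 5, 2 and 0 higher and 0, 0, 3 and 18 lower regions in the 4 groups. A further 8 higher regions lacked a peak in a DMSO library. With the trend of each library on mean tag count removed by lowess, 30 higher and 13 lower regions were called, including 20 of the 35 and 12 of the 21. Of the regions then called in these groups, 10, 5, 6 and 3 were higher and 0, 0, 4 and 9 lower. With the trend removed, 26 of 27 higher and 21 of 21 lower regions still had the same sign without P5091.

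The 5 tested regions of highest mean tag count on chromosomes 1 to 22 and X did not pass in the fit of the 4 libraries. At chr2:242032810-242033166 the combination had 183.8 and 424.6, against 658.8 and 519.3 with P5091 (centred log2 difference -0.401 ± 0.22 SE, adjusted p = 0.486). At chr15:69886990-69887346 it had 148.8 and 264.4, against 606.7 and 382.5 with P5091 (-0.614 ± 0.22, adjusted p = 0.202). This region passed as lower with all 8 libraries in the fit (-0.601, adjusted p = 0.0423) and without combination replicate 2 (-0.667, adjusted p = 0.0208). The other 3 differed by -0.357, -0.135 and 0.0224.

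A plain rule of size gave a wider set than the test. The centred tag count was at least 2-fold higher in both replicate numbers at 124 regions (0.471%) and at least 2-fold lower in both at 35 (0.133%). At 30 regions (0.114%) it was 2-fold apart in opposite directions. Replicate 1 alone was 2-fold higher at 1980 regions (7.53%) and 2-fold lower at 738 (2.81%), and replicate 2 at 485 (1.84%) and 390 (1.48%). With the trend on tag count removed the counts in both numbers were 52 higher, 50 lower and 16 opposite.

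Regions less than 5 kb apart shared more of their difference than regions farther apart. For pairs of regions less than 2 kb apart, the difference of one region in replicate 1 and of the other in replicate 2 had r = 0.11 over 577 pairs, and at 2 to 5 kb it was 0.10, where a region with itself across replicate numbers gave the r of 0.223 above. Within replicate 1 the values were 0.25 and 0.31, and within replicate 2 they were 0.13 and 0.12. At 5 to 10 kb r was 0.046 and at 200 to 500 kb 0.011. With the trend removed the first 2 values across replicate numbers were 0.061 and 0.049. Within 50 kb of the 35 higher regions lay 28 other tested regions, of which 22 (78.6%) differed in the higher direction, where 51.4% of all tested regions did. Near the 21 lower regions lay 32, of which 23 (71.9%) differed in the lower direction, where 48.6% of all tested regions did.

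**Figure D5:**
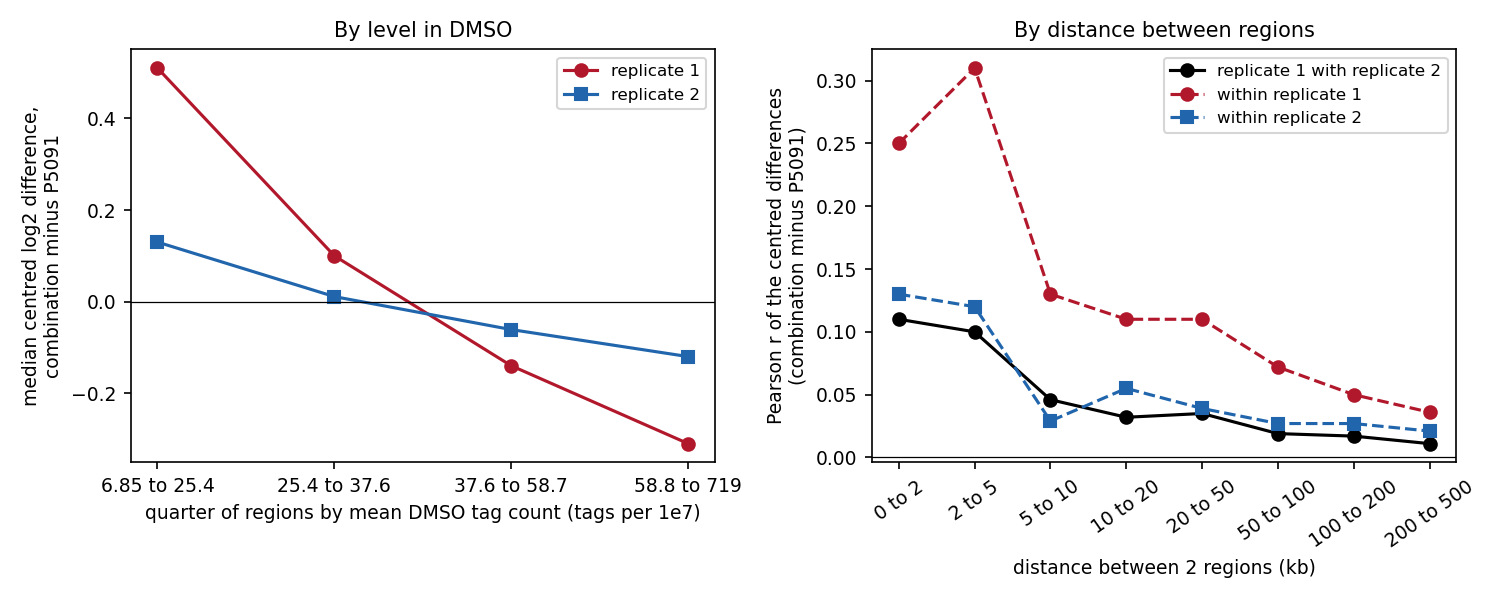
Left, median centred log2 difference, combination minus P5091, in 4 groups of regions by mean DMSO tag count, for each replicate number. It decreases from the weakest to the strongest group in both, between 0.51 and -0.31 in replicate 1 and between 0.13 and -0.12 in replicate 2. Right, Pearson r of the differences of 2 regions by the distance between them, across replicate numbers (black, 0.11 under 2 kb) and within each (dashed).

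Regions that had a peak in both libraries of one group and in neither of the other were mostly weak. Taken 1 library against 1, P5091 had more regions of its own in replicate 1 and not in replicate 2. Both combination libraries and neither P5091 library had a peak at 638 regions (0.562% of 113493), and both P5091 libraries and neither combination library at 6890 (6.07%). Without combination replicate 1 there were 17037 regions called in the remaining combination library alone and 7404 called in both P5091 libraries alone. These 2 counts are unlike, since the first needs a peak in 1 library and the second in 2. Within replicate 2, 21360 regions had a peak with the combination only and 20990 with P5091 only. Within replicate 1 the numbers were 3258 and 40951. With the strongest 30811 peaks of every library, 1472 regions were called in both combination libraries and neither P5091 library, and 1722 the reverse. The highest tag count of the 4 compared libraries exceeded 20 at 164 of the 638 (25.7%) and 1432 of the 6890 (20.8%). It did so at 45742 of all merged regions (40.3%), so most of those were weak too. The median highest tag count was 15.0 in both sets and 17.0 over all merged regions. A region absent from a list may have a peak removed by the filters against the input, the local window or clonal tags, and 1 input library served both replicates of a treatment.

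The separate EPZ-6438 and DMSO libraries differed at these regions in the same direction. Of the 638, 94 (14.7%) had a peak in both EPZ-6438 libraries and neither DMSO library, and 12 (1.88%) the reverse. Of the 6890, 222 (3.22%) had a peak in both EPZ-6438 libraries and neither DMSO library, and 698 (10.1%) the reverse. Among all merged regions the shares were 4.03% and 3.0%.

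Of the 5 strongest of the 638 regions, 4 had a P5091 peak within 1000 bases. At chr7:133119030-133119315 the combination had 26.3 and 71.0 and P5091 had no peak, but 61 bases away, at chr7:133118573-133118968, P5091 had 73.1 and 47.8 and the combination no peak. The same held on chromosome 11, where chr11:64871657-64872036 had 31.3 and 57.6 with the combination alone and chr11:64872072-64872448, 35 bases away, had 73.7 and 67.2 with P5091 alone. Both positions were also called without either compound, in different replicates. On chromosome 7, DMSO replicate 1 had a peak at the second position (58.5) and DMSO replicate 2 at the first (43.0). EPZ-6438 had 53.6 and 59.4 at the first. On chromosome 11, replicate 1 of EPZ-6438 and of DMSO had a peak at the second position (58.4 and 92.1). Replicate 2 of each had it at the first (68.3 and 55.7). Whether these are separate sites or 1 site whose peak centre moved was not tested. Leaving out regions with a peak of the other group within 1000 bases left 517 and 6190. The third of the 638, chr10:79258688-79258981, had 23.8 and 51.3 with the combination and no overlapping peak in any P5091, EPZ-6438 or DMSO library, but it too had a P5091 peak within 1000 bases. The one with none within that distance, chr4:56983-57262, had 23.8 and 35.5 with the combination. It also had a peak in EPZ-6438 replicate 1 (38.1) and in DMSO replicate 1 (36.6). In the other set, chr11:85194939-85195295 had 52.8 and 82.3 with P5091, 89.4 and 129.3 with EPZ-6438, and no peak with the combination or DMSO. The combination and EPZ-6438 libraries thus differed there.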

How the data were processed

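The deposited files are peak lists, 1 per library. Sonicated chromatin was sequenced single-end, per the labels' protocols. Bowtie2, HOMER 4.2 and hg19 are named in the submitters' processing notes, and peaks were called per library with findPeaks, at a false discovery rate of 0.001, 4-fold over a local window of 10 kb and 4-fold over an input library, per the file headers. The normalized tag count of a peak is a signal value scaled by the authors to 1e7 tags. The deposited findPeaks score served as a stricter threshold (at least 20), the deposited focus ratio (a fraction) only describes peaks, and the authors' fold over the local window and over input (a ratio) was read and not printed. The deposited count of total tags in 3 lists was compared with tags recovered from the normalized values: recovered tags were whole for 100% of peaks and equalled the deposited ones for 97.33% to 100% of peaks. They were used for edgeR.

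Tests used limma (3.58.1, R 4.3.3) with its trend option, applied to centred log2 (tag count + 1) values, a block for replicate number and Benjamini-Hochberg adjustment over all 26306 regions at 0.05, and edgeR (4.0.16, quasi-likelihood) as an alternative. The pseudocount understates changes of weak regions. Regions were named by rule: the 10 higher and 10 lower of smallest p, the 5 of highest mean tag count and the 5 strongest in each one-sided set, some of which are given as ranges. The comparison, the regions named and the alternatives were chosen with earlier results of these data known. Replicate numbers come from the titles. The deviations of replicate 1 from replicate 2 had r = 0.219 between the combination and P5091, and fragment lengths per the file headers ran from 274 to 278 bases in the first replicates and from 216 to 230 in the second. The planned lists of genes near regions were not used, because no hg19 annotation was at hand. limma and the merging were tested on simulated data. Repeated sequence was not filtered out.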

Additional observations from a re-analysis of the deposited data

Results flagged for a closer look

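At chr5:102004261-102004617 the effect of EPZ-6438 differed between cells with and without P5091 by an unadjusted test of the difference itself, among the called regions. The tag counts were 14.4 and 40.2 with the combination, against 15.0 and 10.3 with P5091, and 16.8 and 13.0 with EPZ-6438 alone, against 20.5 and 13.9 with DMSO. The centred log2 difference was 1.57 with P5091 and -0.126 without it, and the difference between them was 1.71 ± 0.52 SE (limma unadjusted p = 0.00163, adjusted p = 0.999 over 24171 regions). It does not pass the adjustment, and the region was chosen for its difference with P5091.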

How the results depend on the processing

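The number of regions called higher and lower (35 and 21) was 2 and 0 without the replicate block, 0 and 0 without centring, 16 and 9 with quantile normalization and 30 and 13 with the trend on tag count removed. It was 26 and 13 by edgeR with TMM factors, 0 and 0 by edgeR with no replicate block (added after seeing the data), 80 and 131 with all 8 libraries in the fit, and 13 and 8 with scores of at least 20. It was 16 and 15 among regions above the median tag count and 21 and 15 with regions called in at least 3 of 4 libraries. Leaving out a library gave 0 to 391 higher and 0 to 542 lower regions. A pseudocount of 5, relative log expression factors, trimmed peaks and a limit on width kept both counts within 1.5 times. Each of the 56 regions that could be tested kept its direction in each planned fit, except 1 higher region with quantile normalization. The cause of the other changes was not tested.

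The regions called with the combination alone (638) were 30 with scores of at least 20, 1472 with equal numbers of top peaks, and 1187 to 17037 with a library left out. Those with P5091 alone (6890) were 1722 with equal numbers and 7404 to 28707 with a library left out. Regions 2-fold apart in both numbers (124 higher and 35 lower) were 25 and 3 with scores of at least 20 and 12 and 13 among regions above the median tag count. With the trend removed 52 were higher. They have no value with a library left out.

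Of the 48 called regions, 19 also passed between EPZ-6438 and DMSO. This was 2 of the 48 with no replicate block. With a library left out the called set changes too, and the count ran from 0 (of 48 regions without EPZ-6438 replicate 2, and with no region called without P5091 replicate 1) to 102 (of 933 regions without combination replicate 2). The share with the same direction was 100% with the trend removed and 87.0% to 98.1% with a library left out, with no share where no region was called.

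At chr8:52811544-52811900, which did not pass, the difference of -0.135 was 0.155 with quantile normalization, 0.15 with the trend removed and -0.342 to 0.091 with a library left out. At chr17:79367740-79368096, which did not pass either, 0.0224 was -0.64 without centring, -0.0625 with a pseudocount of 5 and -0.118 to 0.191 with a library left out. The calling threshold was 10 to 14 tags by library, so occupancy well under it was not detectable. The tags recovered for a called peak could lie somewhat lower, down to 9 in combination replicate 1, where the threshold was 11.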

Other observations

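The 35 higher regions lay on 14 chromosomes or contigs and the 21 lower regions on 13. Chromosomes 8 and 11 held 7 higher regions each, with 5.15% and 4.97% of the tested regions on them, counts that were singled out after they were seen. The 9 called regions of chromosome 8 and the 7 of chromosome 11 were spread along the chromosome. The median centred difference over all tested regions of chromosome 8 was 0.074 in replicate 1 and -0.0091 in replicate 2, and over those of chromosome 11 it was 0.085 and -0.019.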
